A study of Homo sapiens with 12 samples.

Results

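Potassium channel genes are the genes whose symbols consist of KCN, a family letter or letters, and a number, and they were taken from the count table by that spelling. The rule found 95 of the 57500 genes measured. By the usual classes they hold 30 voltage-gated pore-forming subunits, 10 silent voltage-gated subunits, 16 inward rectifiers, 15 two-pore subunits, 8 calcium- or sodium-activated subunits and 16 auxiliary subunits. RNA was sequenced after removal of ribosomal RNA from 12 libraries of 3 established human cancer cell lines, with 3 biological replicates in each of 4 groups. SW480 and SW620 are colorectal lines without treatment, grown in DMEM. SW480 was derived from a primary tumour and SW620 from a metastasis of the same patient. PEO4 is an ovarian line grown in RPMI 1640, either in control medium or with recombinant human TGF-β at 10 ng/mL for 6 days. The primary tumour and the metastasis are each represented by 1 line, so a difference between SW480 and SW620 is a difference between 1 line of each kind. The comparisons are SW620 against SW480 and treated against control PEO4, and PEO4 was not tested against the colorectal lines because tissue and medium differ together.

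Potassium channels let potassium ions leave or enter cells along their gradient and so set the membrane voltage. Voltage-gated channels open on depolarization, inward rectifiers and two-pore channels hold the resting potential, and calcium-activated channels couple calcium entry to potassium exit. In colonic epithelium, basolateral potassium channels recycle potassium and keep up the driving force for chloride secretion. Auxiliary subunits change the gating, assembly or transport of the pore-forming subunits, and silent subunits form channels only together with other voltage-gated subunits.

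Library totals ranged from 14531420 to 22028956 gene-assigned counts, and 3 counts corresponded to 0.136 to 0.206 CPM (counts per 1000000 counts of a library). Levels of genes and lists in CPM, and the 5 CPM limit, use totals scaled by TMM over the 12 libraries (factors 0.821 to 1.33). The 3-count floor and the 10 CPM rule below use unscaled totals. Potassium channel genes together took 0.0496 to 0.0658% of the counts of a library, and 70 to 81 of the 95 had at least 1 count there. Replicate 2 of SW480 and of SW620 had the lowest total and the highest non-coding share of its line (4.04 and 4.60%). In SW620 replicate 3, 106 genes that had at least 10 CPM in every PEO4 library and at most 3 counts in each of the other SW620 libraries held 964 counts, or 1.26% of their PEO4 level. The same measure was 0.569% over 12 genes in SW620 replicate 1 and 0.513% over 11 genes in replicate 2. Values without SW620 replicate 3 are given for the members in which that PEO4-like level makes up a sizeable part of a low count. The summed CPM of the ovarian lineage markers was 3190 to 8883 in PEO4 libraries and 110 to 199 in the colorectal ones. The summed CPM of the colorectal lineage markers was 9.02 to 13.4 in PEO4, 90.7 to 112 in SW480 and 269 to 409 in SW620. Of these 8 markers, 5 were tested between the colorectal lines, with 3 higher and 1 lower in SW620. Their part in the channel differences was not tested. Blood and vessel markers summed to 3.89 to 12.1 CPM in every library. In PEO4, the TGF-β-induced genes COL7A1 and TGFBI rose with treatment, at 3.46 ± 0.21 and 2.33 ± 0.25 on the log2 scale (± SE, adjusted p = 0.000485 and 0.00266, edgeR's quasi-likelihood test), and these were 2 of 6 such genes checked.

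Most potassium channel genes were weakly represented. A mean above 5 CPM in at least 1 group was reached by 41 members, and the genes described by name are mainly drawn from these. The other 54 stayed at or below 3.93 CPM, with a median of 0.637 CPM for the highest group mean. Among those 54, 12 never had more than 3 counts in any library, and 5 had 0 counts in all 12. Just above the limit were KCNJ2 at 5.60 and KCNMB3 at 5.32 CPM, and just below it KCNJ13 at 3.93 and KCNV2 at 3.85 CPM in their highest group. The 41 comprise 11 of 30 voltage-gated pore-forming subunits, 4 of 10 silent subunits, 8 of 16 inward rectifiers, 5 of 15 two-pore subunits, 5 of 8 calcium- or sodium-activated subunits and 8 of 16 auxiliary subunits.

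SW480 had 25 members above 5 CPM and SW620 had 17, while PEO4 control had 27 and treated PEO4 had 26. Above 5 CPM in every group were 7 genes. They are KCNAB2 (a beta subunit of voltage-gated channels), KCNC4, KCNH2 (the hERG channel), KCNJ11 (the pore of the ATP-sensitive channel), KCNJ14, KCNK5 and KCNK6. A further 12 genes passed 5 CPM in SW480 and not in SW620, and 4 passed it in SW620 and not in SW480. Summed over all members on TMM-scaled totals, SW480 had 553 ± 16.2 CPM and SW620 488 ± 30.4 CPM, against 671 ± 35.3 CPM in control and 662 ± 48.1 CPM in treated PEO4 (SD, n = 3). As a mean share of unscaled counts, members took 0.0603% in SW480, 0.0563% in SW620, 0.0614% in control and 0.0579% in treated PEO4. The order between the lines therefore depends on the scaling.

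A few genes took much of that sum, and the leading gene differed by line. KCNMA1, the large-conductance calcium-activated (BK) channel, held 23.3% of the summed CPM in PEO4 control and 21.1% with TGF-β. KCNJ5, a subunit of G-protein-gated inward rectifiers, held 37.3% in SW480. KCNAB2 held 27.7% in SW620. The top 3 genes together held 50.3% in SW480 and 48.0% in SW620, and 35.7% and 36.9% in control and treated PEO4.

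Levels of different genes were also set per kilobase of exon, counted over the merged exons of all annotated transcripts of a gene. This is not the length of 1 transcript. It is 35644 bases for KCNMA1 and 2065 for KCNJ4, so the order between genes depends on the annotation. In PEO4 control the highest values were 19.8 ± 4.13 CPM per kb for KCNJ4, an inward rectifier, 18.3 ± 4.54 for KCNF1, a silent subunit, and 14.9 ± 4.06 for the two-pore subunit KCNK15 (SD, n = 3). The spreads of these top values overlap, and KCNK5 followed at 7.77 CPM per kb, below those values. In PEO4 with TGF-β, KCNK15 led at 26.9 CPM per kb, followed by KCNF1 at 15.1 and KCNJ4 at 10.5. In SW480, KCNJ5 stood at 33.8 CPM per kb and the next gene, KCNJ4, at 5.61. In SW620 the order was KCNAB2 at 14.2, KCNH2 at 10.5, KCNE3 at 10.4 and KCNH8 at 5.11 CPM per kb.

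**Figure D1:**
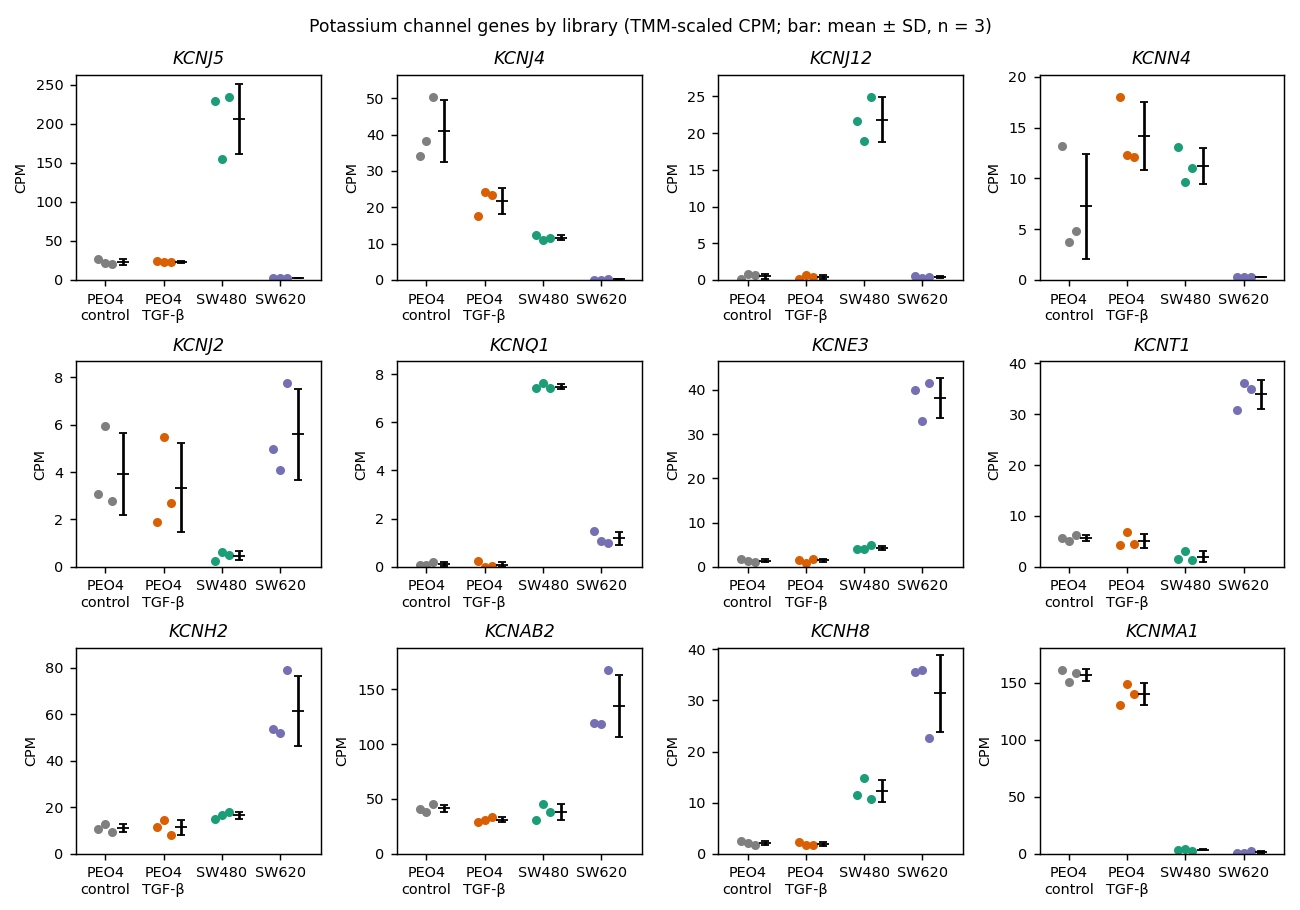
CPM (counts scaled by TMM) of 12 potassium channel genes in every library of the 4 groups, with each point 1 library and the bar beside it the mean ± SD of 3 libraries. KCNJ5 reached 154 to 235 CPM in SW480, KCNAB2 118 to 167 CPM in SW620 and KCNMA1 130 to 161 CPM in the PEO4 libraries.

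SW620 was set against SW480 to ask how a metastatic and a primary line of 1 patient differ. The inward rectifier genes KCNJ5, KCNJ4 and KCNJ12 and the calcium-activated KCNN4 were lower in SW620, and KCNT1, KCNE3, KCNH2 and KCNAB2 were higher. KCNJ5 was 75.0-fold lower in SW620, KCNJ4 66.1-fold, KCNJ12 56.0-fold and KCNN4 36.2-fold, while KCNT1 was 17.0-fold higher and KCNE3 8.83-fold higher (ratios of mean CPM, n = 3). Of the 95 members, 58 had enough counts to be tested, and 29 of these (50%) had an adjusted p under 0.05 (edgeR's quasi-likelihood test, Benjamini-Hochberg adjustment over all genes). The background was 30.5% of all 20941 genes tested. Higher in SW620 were 11 members (19.0%, background 13.5%) and lower 18 (31.0%, background 17.0%). Both passing and differing at least 2-fold were 27 of the 58 tested members, against 4393 of the 20941 genes tested (21.0%). Replicate values did not overlap between the lines for 38 of the 58 (65.5%), against 42.7% of all genes. The median log2 fold change of the tested members was -0.02 and that of all genes 0.03, whereas the median size of the change, regardless of sign, was 1.15 against 0.53. A member tested only because it is high in 1 line tends to differ between the lines, so these shares describe the tested members and not all 95. With at least 10 counts in every library, 36 members were tested and 15 passed, 8 higher and 7 lower. In that fit 33.3% of all genes passed.

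Leaving out 1 library at a time gave 21 to 33 called members, where 19.0 to 33.3% of all genes passed. Without SW620 replicate 3 there were 33, of which 28 were among the 29. Without replicate 2 of both lines there were 27, made up of 10 higher and 17 lower, where 36.8% of all genes passed. Of these 27 members, 26 were among the 29. The 19 called members above 5 CPM that are reported here kept their direction in that fit, and their log2 changes moved by at most 0.52. Among the called members under 5 CPM, KCNS2 lost its call without any 1 library other than SW620 replicate 2. KCNH6 lost it without SW480 replicate 1, SW480 replicate 3 or SW620 replicate 1, and KCNA2 and KCNJ1 without SW620 replicate 1. In the authors' deposited table, 12 members were higher and 18 lower, 28 of them shared with the calls here, where 34.3% of the genes with an adjusted p passed.

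**Figure D2:**
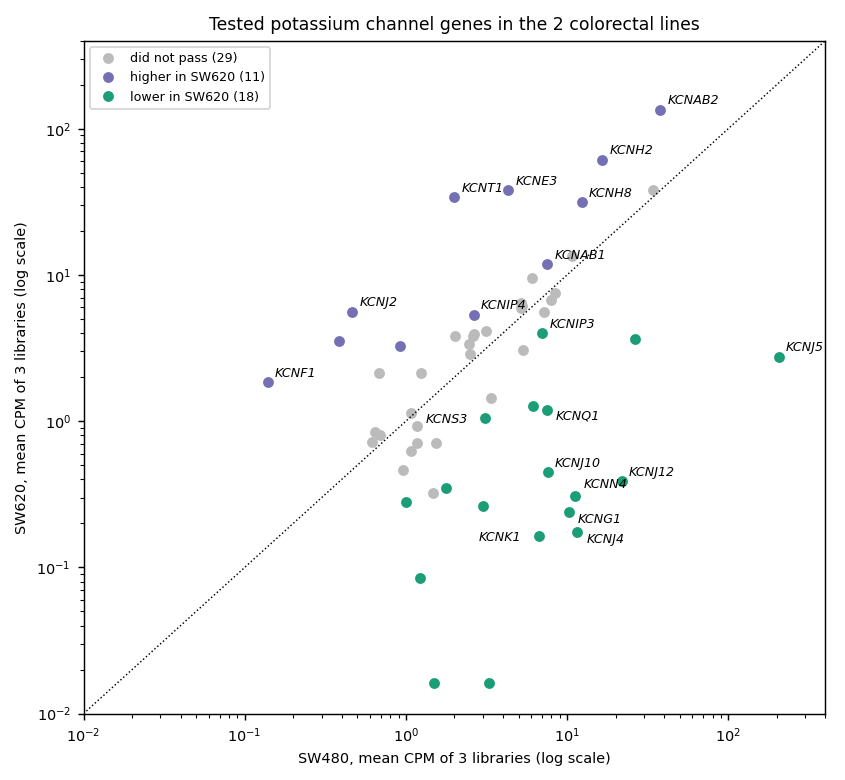
Mean CPM in SW480 (horizontal) and SW620 (vertical), both on log scales, for the 58 tested potassium channel genes, 1 point per gene, with the dotted line marking equal levels. The 18 genes lower in SW620 lie below the line, led by KCNJ5 at 206 against 2.75 CPM, and the 11 higher genes lie above it.

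Among inward rectifiers, 5 were lower in SW620 and 1 higher of 11 tested. KCNJ5 (chromosome 11, 128891356 to 128921035, + strand, GRCh38) measured 230, 154 and 235 CPM in SW480 replicates 1 to 3 and 2.65, 2.58 and 3.02 CPM in SW620. Every SW480 library was far above every SW620 library. The log2 fold change was -6.19 ± 0.24 (± SE, adjusted p = 1.57e-06, edgeR's quasi-likelihood test) and ranged from -6.37 to -6.08 over all alternatives tried. In PEO4 control KCNJ5 measured 26.7, 22.3 and 19.9 CPM, between the colorectal lines.

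KCNJ4, which encodes the strong inward rectifier Kir2.3, measured 12.3, 11.0 and 11.5 CPM in SW480 and 0.0964, 0.0516 and 0.378 CPM in SW620. The highest SW620 value was in replicate 3, where the 1.22% median level of the PEO4 genes described above corresponds to 7.60 of the 8 counts observed. The log2 fold change was -5.95 ± 0.49 (adjusted p = 3.23e-05, edgeR's quasi-likelihood test), and -7.12 without that library. KCNJ12, encoding Kir2.2, measured 21.7, 18.9 and 25 CPM in SW480 and 0.482, 0.310 and 0.378 in SW620, a log2 change of -5.75 ± 0.26. Its near-identical copy KCNJ18 can share its reads, so which of the copies these reads come from is uncertain.

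KCNJ10, a weakly rectifying channel of glia and epithelia, measured 8.13, 6.48 and 8.13 CPM in SW480 and 0.434, 0.671 and 0.236 in SW620 (log2 change -4.04 ± 0.41). KCNJ9 lies 11.1 kb from KCNJ10 on chromosome 1 and was not called. KCNJ1, the renal ROMK channel, lies 24.0 kb from KCNJ5 on chromosome 11 and was also lower. It measured 1.01 to 1.36 CPM in SW480 and 0 to 0.206 CPM in SW620, under the 5 CPM limit. KCNJ2, encoding Kir2.1, went the other way. It measured 0.252, 0.625 and 0.518 CPM in SW480 and 4.97, 4.08 and 7.75 CPM in SW620, a log2 change of 3.60 ± 0.44 (adjusted p = 0.000329, edgeR's quasi-likelihood test). Among the Kir2 genes, therefore, KCNJ4 and KCNJ12 were lower and KCNJ2 higher in SW620. KCNJ11, KCNJ14 and KCNJ8 did not pass, with log2 changes of -0.34 ± 0.24, -0.12 ± 0.21 and 0.36 ± 0.48.

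Promoter windows are shown for the 2 largest changes in each direction, because each lies next to an annotated start site of its gene. The genes were taken from the called members above 5 CPM that had a RefSeq window clear of the gene's GENCODE exons. Members with large changes but no such window, among them KCNJ12, KCNG1, KCNK1 and KCNN4, are not printed. Each is the 250 bases before a start site in RefSeq (GRCh38.p14), read 5′ to 3′ on the gene's strand, and the capitals mark matches on either strand to the GC box GGGCGG, the AP-1 site TGANTCA or the SMAD motif CAGAC. The motifs do not overlap in the windows printed. Where a gene had several RefSeq start sites, the window at the lowest coordinate was kept, which on the - strand is the most downstream one. The start used for KCNJ4 lies 11170 bases inside the GENCODE gene, and its use in the colorectal lines was not tested.
KCNJ5 (chr11:128891106-128891355, + strand): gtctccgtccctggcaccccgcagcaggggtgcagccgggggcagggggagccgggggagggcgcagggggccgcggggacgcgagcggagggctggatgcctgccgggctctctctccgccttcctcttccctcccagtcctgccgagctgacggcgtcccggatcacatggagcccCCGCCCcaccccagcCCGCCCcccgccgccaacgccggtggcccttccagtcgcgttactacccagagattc
KCNJ4 (chr22:38444029-38444278, - strand): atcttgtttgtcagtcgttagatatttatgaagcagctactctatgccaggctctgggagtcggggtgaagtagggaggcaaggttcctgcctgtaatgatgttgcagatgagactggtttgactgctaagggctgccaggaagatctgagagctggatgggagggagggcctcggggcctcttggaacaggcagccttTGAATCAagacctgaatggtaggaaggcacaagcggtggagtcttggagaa
KCNT1 (chr9:135701935-135702184, + strand): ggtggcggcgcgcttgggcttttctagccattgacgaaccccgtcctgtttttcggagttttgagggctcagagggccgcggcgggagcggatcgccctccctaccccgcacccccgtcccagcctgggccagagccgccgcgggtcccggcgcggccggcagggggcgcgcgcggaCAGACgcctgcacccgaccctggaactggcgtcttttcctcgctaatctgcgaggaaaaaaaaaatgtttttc
KCNF1 (chr2:10911684-10911933, + strand): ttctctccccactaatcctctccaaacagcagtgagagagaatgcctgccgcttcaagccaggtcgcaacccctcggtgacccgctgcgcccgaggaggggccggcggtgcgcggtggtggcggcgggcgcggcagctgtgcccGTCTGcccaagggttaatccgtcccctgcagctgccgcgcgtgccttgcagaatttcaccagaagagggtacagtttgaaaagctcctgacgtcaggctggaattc
The KCNJ5 window holds 24 CpG dinucleotides and 75.2% GC with 2 GC boxes, whereas the KCNJ4 window holds 4 CpG and 1 AP-1 match. KCNT1 and KCNF1, both higher in SW620, have 29 and 20 CpG and 1 CAGAC match each. Windows were found for 71 of the 95 members. A GC box was in 54.9% of these against 41.6% of 27305 RefSeq windows, an AP-1 match in 9.86% against 6.74%, and CAGAC in 43.7% against 37.9%. The GC box was in 69.0% of the 29 windows of members above 5 CPM and in 45.2% of the other 42, and the median CpG count was 17.0 and 8.50. These shares cover all windows found, also those that overlap exons of their gene. The windows of KCNAB2, KCNJ10 and KCNN4 do so over all 250 bases. These are letter matches and not measured binding.

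Among calcium- and sodium-activated channels, 1 of 4 tested was higher and 1 lower. KCNN4, the intermediate-conductance calcium-activated channel of colonic epithelium, measured 13.1, 9.60 and 11.0 CPM in SW480 and 0.289, 0.310 and 0.331 CPM in SW620. The groups were widely separated, with a log2 change of -5.12 ± 0.30 (adjusted p = 6.68e-06, edgeR's quasi-likelihood test). In SW620 replicate 3 the PEO4 gene level corresponds to 2.53 of its 7 counts, and without that library the log2 change was -5.16. KCNT1, the sodium-activated Slack channel, measured 1.51, 3.18 and 1.30 CPM in SW480 and 30.8, 36.1 and 34.9 CPM in SW620. Its log2 change of 4.12 ± 0.33 (adjusted p = 3.13e-05) was the largest rise among the members above 5 CPM in this comparison. The BK channel KCNMA1 measured 3.63, 3.69 and 2.75 CPM in SW480 and 1.01, 0.826 and 2.46 CPM in SW620. It did not pass (log2 change -1.21 ± 0.45, adjusted p = 0.0703, edgeR's quasi-likelihood test). In SW620 replicate 3, 35.6 of its 52 counts correspond to the PEO4 gene level, and without that library the change was -1.82 with an adjusted p of 0.00626 by edgeR. With every library kept, it passed by limma-voom (adjusted p = 0.0417), with at least 10 counts in every library (adjusted p = 0.0494, edgeR) and with 12 libraries in 1 model (adjusted p = 0.00378, edgeR).

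Voltage-gated pore-forming subunits were split, with 3 higher and 6 lower of 19 tested. KCNH2, which carries the rapid delayed rectifier current of the heart, measured 14.9, 16.8 and 17.9 CPM in SW480 and 53.7, 51.9 and 78.9 CPM in SW620. The lowest SW620 library was well above the highest SW480 library, at a log2 change of 1.92 ± 0.19 (adjusted p = 9.84e-05, edgeR's quasi-likelihood test). KCNH8, of the related Elk type, measured 11.4, 14.8 and 10.8 CPM in SW480 and 35.5, 35.9 and 22.7 CPM in SW620, a log2 change of 1.38 ± 0.24. The ether-a-go-go genes did not share a direction. KCNH6 was higher, at 0.466 to 1.53 CPM in SW480 and 2.79 to 3.72 CPM in SW620. KCNH1 was lower, at 1.25 to 1.62 CPM in SW480 and at most 1 count in any SW620 library, a ratio of 91.9 with a counting interval of 16.0 to 3670 at 95% confidence.

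KCNC4, a fast voltage-gated channel, did not pass, at 30.3, 41.7 and 30.3 CPM in SW480 against 32.6, 53.3 and 28.1 CPM in SW620. KCNQ1, which pairs with KCNE3 in colonic crypts, measured 7.42, 7.61 and 7.41 CPM in SW480 and 1.49, 1.08 and 0.992 CPM in SW620. Its log2 change was -2.62 ± 0.29 (adjusted p = 0.000187, edgeR's quasi-likelihood test), and its exons overlap the antisense transcripts KCNQ1OT1 and KCNQ1-AS1, so reads cannot be assigned without strand. KCNQ5 did not pass (0.09 ± 0.52). Under 5 CPM, KCND3 and KCNA2 were lower, at 3.01 against 0.265 and 1.78 against 0.348 CPM on average.

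Silent subunits gave 1 higher and 3 lower of 6 tested. KCNG1 measured 11.3, 8.98 and 10.6 CPM in SW480 and 0.193, 0.103 and 0.425 CPM in SW620, with 4.99 of the 9 counts in SW620 replicate 3 corresponding to the PEO4 gene level. Its log2 change was -5.34 ± 0.42 (adjusted p = 2.62e-05, edgeR's quasi-likelihood test) and -6.01 without that library. KCNF1 rose from 0.151, 0.0568 and 0.207 CPM to 1.59, 1.75 and 2.17 CPM, a log2 change of 3.69 ± 0.54. In SW620 replicate 3, 9.14 of its 46 counts correspond to the PEO4 gene level, and without that library the log2 change was 3.56. KCNF1 is among the named genes through PEO4, where it stood at 30.8 to 51.3 CPM in control. KCNS3 was lower by 1.52 ± 0.45 on the log2 scale, and its call was lost without SW480 replicate 1, SW480 replicate 3 or SW620 replicate 1 (log2 changes of -1.24, -1.41 and -1.30, adjusted p = 0.154, 0.107 and 0.133, edgeR). KCNS2, under 5 CPM, was lower as well, at an adjusted p of 0.0480.

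Two-pore subunits gave 1 higher and 2 lower of 8 tested. KCNK1, encoding TWIK-1, measured 6.86, 5.74 and 7.41 CPM in SW480 and 0.241, 0.206 and 0.0472 CPM in SW620 (log2 change -5.26 ± 0.48, adjusted p = 6.07e-05, edgeR's quasi-likelihood test). In SW620 replicate 3 the PEO4 gene level corresponds to 4.21 counts of KCNK1, where 1 was observed, and to 4.74 counts of KCNV1, where 2 were observed, so for these genes it exceeds the data. Under 5 CPM, KCNK13 held 34 to 93 counts in each SW480 library and at most 1 in any SW620 library, a count ratio of 205 with a counting interval of 36.4 to 8152 at 95% confidence. KCNK10, encoding TREK-2, rose from 0.386 ± 0.404 to 3.52 ± 0.445 CPM. KCNK5 and KCNK6, expressed above 5 CPM in every group, did not pass, with log2 changes of -0.21 ± 0.20 and 0.37 ± 0.17.

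Auxiliary subunits gave 4 higher and 1 lower of 10 tested, and no difference between classes was tested. KCNE3, the partner that holds KCNQ1 open in colonic epithelium, measured 4.09, 3.98 and 4.87 CPM in SW480 and 39.9, 32.9 and 41.5 CPM in SW620. The log2 change was 3.17 ± 0.18 (adjusted p = 5.31e-06, edgeR's quasi-likelihood test). KCNE3 and KCNQ1 thus moved in opposite directions between the lines. KCNAB2 measured 30.5, 45.4 and 37.8 CPM in SW480 and 119, 118 and 167 CPM in SW620, a log2 change of 1.85 ± 0.21 (adjusted p = 0.000222), and its exons overlap NPHP4 on the opposite strand. KCNAB1, another beta subunit, and KCNIP4, a calcium-binding partner of Kv4 channels, were higher by 0.69 ± 0.19 and 1.05 ± 0.31 on the log2 scale. KCNIP3, a relative of KCNIP4, was lower by 0.79 ± 0.24. These smaller calls did not pass in every set of libraries, although the estimates moved little. KCNAB1 lost its call without SW480 replicate 1, SW480 replicate 3 or SW620 replicate 1 (log2 changes of 0.67, 0.69 and 0.66, adjusted p = 0.106, 0.0949 and 0.0835, edgeR). KCNIP4 lost it without any 1 SW480 library or SW620 replicate 1 (log2 changes of 0.88 to 1.21, adjusted p = 0.0606 to 0.136, edgeR), and KCNIP3 without any 1 SW480 library, SW620 replicate 1 or SW620 replicate 2 (log2 changes of -0.83 to -0.69, adjusted p = 0.0700 to 0.138, edgeR).

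Other genes of potassium handling were read from 5 lists. Of 12 partner subunits, 7 were tested and 2 were lower. ABCC8, the sulfonylurea receptor that assembles with KCNJ11, fell from 10.6 ± 3.97 to 0.959 ± 0.478 CPM (log2 change -3.43 ± 0.45, adjusted p = 0.000498, edgeR's quasi-likelihood test), while KCNJ11 did not pass. Of 23 pumps and cotransporters, 16 were tested, with 4 higher and 5 lower. SLC12A7, a potassium-chloride cotransporter, rose from 85.3 ± 4.99 to 292 ± 49.3 CPM, and FXYD5, a regulator of the sodium pump, fell from 73.9 ± 13.0 to 16.3 ± 5.49 CPM. Of 10 related cation channels, 4 were tested and HCN2 and HCN4 were lower, HCN2 at 47.9 ± 4.68 against 7.54 ± 1.80 CPM. Among 11 regulating kinases and ligases, 3 were higher and 3 lower, led by WNK4, which rose by 3.01 ± 0.28 on the log2 scale. Of 17 genes for chloride exit and calcium entry, 15 were tested, with 4 higher and 3 lower. ANO1, the calcium-activated chloride channel, fell from 419 ± 84.5 to 41.0 ± 1.14 CPM (log2 change -3.32 ± 0.20, adjusted p = 7.91e-06). Of 6 neuroendocrine markers, 4 were tested. The 6 summed to 17.6 to 23.2 CPM in SW480 and 38.9 to 63.6 CPM in SW620, with CHGB and SYP higher and NEUROD1 lower, and their part in these differences was not tested. In bulk RNA, fewer cells with a transcript and less of it per cell cannot be told apart.

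PEO4 with TGF-β was set against PEO4 control to ask what 6 days of the cytokine do to this line. Few potassium channel genes passed in the fit without a replicate block. KCNN3 fell 4.90-fold, KCNJ4 1.88-fold and KCNAB2 1.33-fold (ratios of mean CPM, n = 3), and no member passed in the other direction. Of the 95 members, 53 were tested and 3 passed, all lower with treatment (5.66%). In edgeR's quasi-likelihood test 2.26% of all 19064 genes passed in either direction, 0.991% lower and 1.27% higher. No member was called higher by edgeR in that fit, while 5 were higher and 8 lower at an unadjusted p under 0.05. DESeq2 called 2 higher and the authors' deposited table named KCNK15 alone as higher. With the replicate number as a block, edgeR called 12 members, 5 higher and 7 lower, where 11.0% of all genes passed. In their deviations from the group means, same-numbered libraries correlated at 0.508, 0.0726 and 0.634, and differently numbered ones at -0.562 to 0.0766. Because replicate 2 gave only 0.0726, the numbers were not taken to pair them. The calls without a block thus leave aside what replicates 1 and 3 share by number. The 13 members at an unadjusted p under 0.05 are 24.5% of those tested, against 16.7% of all genes. Values did not overlap for 11 of the 53 (20.8%), against 19.9% of all genes. The median log2 fold change was -0.01 for the members and -0.02 for all genes, and the median size of the change 0.30 and 0.18.

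Which members passed depended on the set of libraries. Dropping control replicate 1 gave 8 calls, made up of 4 higher and 4 lower, where 5.38% of all genes passed. There was 1 call without control replicate 2, 2 without control replicate 3, 1 without treated replicate 1, 1 without treated replicate 2 and 3 without treated replicate 3. In these later fits 0.366 to 1.18% of all genes passed. KCNN3 was the 1 call found in every fit that left out 1 library. The authors' deposited table called 6 members, among them the 3 above, KCNK5 as lower and KCNK15 as higher, where 5.66% of its genes with an adjusted p passed.

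**Figure D3:**
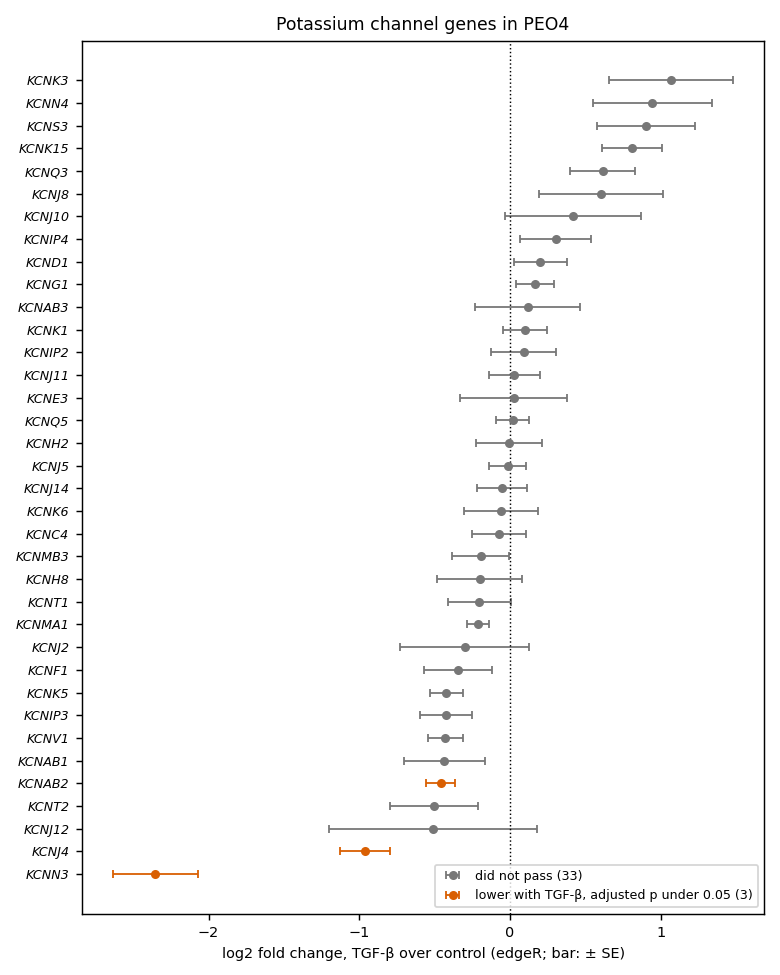
Log2 fold change of TGF-β over control with its SE (edgeR) for 36 of the tested members above 5 CPM in any group, ordered by the change. KCNN3, KCNJ4 and KCNAB2 are the 3 that passed, at -2.35, -0.96 and -0.46, and the other 33 lie on both sides of 0.

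KCNN3, the small-conductance calcium-activated channel SK3, measured 5.84, 8.96 and 7.61 CPM in control and 1.78, 1.75 and 1.05 CPM with TGF-β. The lowest control library was above the highest treated one. The log2 fold change was -2.35 ± 0.28 (adjusted p = 0.00480, edgeR's quasi-likelihood test), and it ranged from -2.51 to -2.15 over the alternatives. Against a 2-fold limit (glmTreat in edgeR) the adjusted p was 0.112. KCNN3 lies on chromosome 1, 154697455 to 154870280, on the - strand (GRCh38). Its RefSeq window, shown because KCNN3 is the clearest change in PEO4, belongs to a start site 10403 bases inside the GENCODE gene, and capitals mark the TGANTCA match.
KCNN3 (chr1:154859877-154860126, - strand): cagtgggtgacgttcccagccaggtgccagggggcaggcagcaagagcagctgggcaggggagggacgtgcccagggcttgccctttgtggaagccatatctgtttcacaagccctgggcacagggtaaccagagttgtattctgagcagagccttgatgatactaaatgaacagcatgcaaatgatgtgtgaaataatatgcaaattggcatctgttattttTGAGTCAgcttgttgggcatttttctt
The window holds 2 CpG, 50.4% GC, 1 TGANTCA match and neither GGGCGG nor CAGAC on either strand. The KCNJ4 window printed above also holds 1 TGANTCA match. Both windows belong to start sites inside their genes, and use of these start sites in PEO4 was not tested.

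KCNJ4 measured 34.0, 38.2 and 50.5 CPM in control and 17.7, 24.2 and 23.4 CPM with TGF-β, without overlap. Its log2 fold change was -0.96 ± 0.17 (adjusted p = 0.0225, edgeR's quasi-likelihood test). The call was lost without control replicate 2, treated replicate 1 or treated replicate 2 (adjusted p = 0.111, 0.0871 and 0.0837, edgeR). KCNAB2 measured 41.1, 37.7 and 44.9 CPM in control and 28.9, 31.0 and 33.1 CPM with TGF-β, at -0.46 ± 0.10 (adjusted p = 0.0465). It lost its call without any 1 library other than control replicate 1 (adjusted p = 0.0692 to 0.211, edgeR) and with scaling by total counts. Both genes lost their calls when the 12 libraries were fitted in 1 model. Over the alternatives the log2 change of KCNJ4 ranged from -1.08 to -0.78, always lower with treatment.

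**Figure D4:**
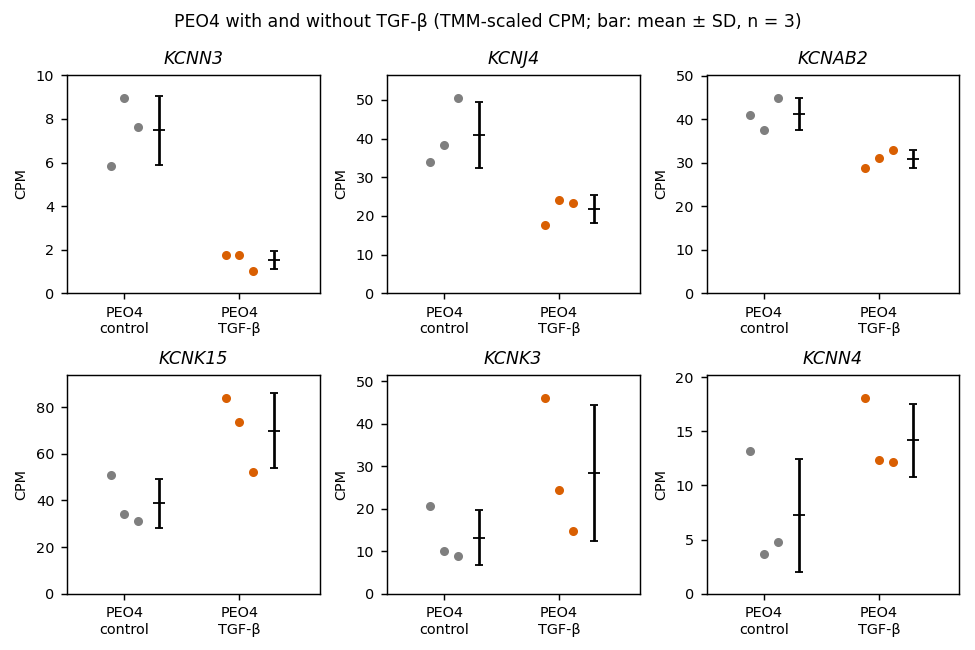
CPM of 6 potassium channel genes in the 3 control and 3 treated PEO4 libraries, with each point 1 library and the bar the mean ± SD. KCNN3, KCNJ4, KCNAB2 and KCNK15 show no overlap between the groups, whereas KCNK3 and KCNN4 do.

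Other members with sizeable estimates did not pass in the fit without a replicate block. KCNK15 measured 50.8, 34.2 and 31.2 CPM in control and 83.9, 73.7 and 52.4 CPM with TGF-β. The groups did not overlap, but the log2 fold change of 0.81 ± 0.20 had an adjusted p of 0.0781 by edgeR's quasi-likelihood test. It passed without control replicate 1 (1.04, adjusted p = 0.0142) and without treated replicate 3 (0.97, adjusted p = 0.0483), and by DESeq2 (adjusted p = 0.000768). KCNK15 overlaps exons of KCNK15-AS1 and RIMS4 on the opposite strand, so its counts are uncertain. The related acid-sensitive two-pore gene KCNK3 measured 20.6, 10.0 and 8.97 CPM in control and 46.0, 24.5 and 14.9 CPM with TGF-β. Its values overlapped between the groups, although each treated library exceeded at least 2 of the 3 control libraries (1.07 ± 0.41, adjusted p = 0.236, edgeR). Without a filter on low counts KCNK3, KCNK15, KCNN4 and KCNS3 all passed, KCNK3 at an adjusted p of 6.62e-06 by edgeR. These genes also passed with the replicate number as a block.

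KCNN4 measured 13.2, 3.71 and 4.80 CPM in control and 18.0, 12.3 and 12.1 CPM with TGF-β. The first control library lay inside the treated range (0.94 ± 0.39, adjusted p = 0.274, edgeR), and without that library the change was 1.68 with an adjusted p of 0.00586. The silent subunit KCNS3 behaved likewise, with 10.1, 4.91 and 4.07 CPM in control, 14.9, 13.3 and 8.44 CPM with TGF-β, and 1.38 without control replicate 1 (adjusted p = 0.0185, edgeR). Control replicate 1 held the highest control value for KCNK15, KCNK3, KCNN4 and KCNS3, and treated replicate 1 the highest treated value. For each of these genes, every treated library exceeded the control library of the same number.

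The most abundant member of PEO4, KCNMA1, measured 161, 151 and 158 CPM in control and 130, 149 and 141 CPM with TGF-β. The ranges did not overlap, yet the difference was small (-0.21 ± 0.07, adjusted p = 0.187, edgeR's quasi-likelihood test). The two-pore gene KCNK5 (-0.42 ± 0.11, adjusted p = 0.0911) and the silent subunit KCNV1 (-0.43 ± 0.11, adjusted p = 0.100) were also separated without passing. KCNJ5, KCNQ5 and KCNH2 had estimates of -0.01 ± 0.12, 0.02 ± 0.11 and -0.01 ± 0.22. KCNQ5, a muscle and brain Kv7 channel, stood at 24.3 to 30.2 CPM in control and 28.1 to 30.3 CPM with TGF-β.

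Of the other genes of potassium handling, 3 passed in PEO4. DPP6, a partner of Kv4 channels, fell from 56.6 ± 3.63 to 40.7 ± 1.46 CPM (log2 change -0.53 ± 0.08, adjusted p = 0.0124, edgeR's quasi-likelihood test). SGK1, a kinase that regulates ion transport, rose from 5.04 ± 0.998 to 11.9 ± 1.92 CPM (1.19 ± 0.19). The 3 were 1 of 6 tested partner subunits, 1 of 14 pumps and cotransporters and 1 of 11 kinases and ligases, and none of 4 related cation channels or 15 genes for chloride exit and calcium entry passed in edgeR. The ovarian lineage markers WT1, MSLN, EMX2 and ESR1, 4 of 8, fell in the treated libraries, and their part in the channel differences was not tested.

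KCNJ4 and KCNAB2 were called in both comparisons. KCNJ4 was lower in SW620 and lower with TGF-β, at -5.95 ± 0.49 and -0.96 ± 0.17. KCNAB2 was higher in SW620 and lower with TGF-β, at 1.85 ± 0.21 and -0.46 ± 0.10 (edgeR log2 fold changes ± SE). KCNN3 could not be tested in the colorectal lines, where it had at most 0.568 CPM.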

How the data were processed

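Counts per gene were deposited for 12 libraries, and per the submitters' processing notes Trimmomatic 0.36, STAR 2.5.2b, featureCounts (Subread 1.5.2), DESeq2 and GRCh38 were used. The annotation and strand use in counting are not given in the sources used here. Exon overlaps with other genes are annotated for more members than those marked above. Among them are KCNJ4, KCNJ2, KCNE3, KCNG1 and KCNMA1 on the opposite strand, and KCNJ14 with GRWD1 on the same strand. Their counts carry the same uncertainty. The deposited tables of the authors hold, per the file headers, log2 fold changes with raw and adjusted p-values, and they were used for comparison of calls alone.

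Members were matched by symbol, and their channel class, like the gene lists, was chosen with earlier results of these data known. Genes described by name were taken from those above 5 CPM in any group (TMM over 12 libraries) and from called members under it, and some are not reported here. For each comparison, the 6 libraries concerned entered edgeR 4.0.16, run in R 4.3.3 (filterByExpr, TMM, quasi-likelihood test, two-sided, Benjamini-Hochberg adjustment over all genes, threshold 0.05). The SE is the log2 fold change over the square root of F. With 3 libraries a group, an exact permutation test (two-sided) reaches no p below 0.1. Biological replicates are as labelled. Their separate cultures are not described, so p-values measure the spread between these samples. Intervals and floors cover counting error.

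The scripts were tested on simulated data. Alternatives were DESeq2 1.42.0, limma-voom (limma 3.58.1), glmTreat, RLE or total-count scaling, a filter of 10 counts in every library or none, a replicate block, 1 model of 12 libraries, other CPM limits and leaving out each library. Leaving out replicate 2 of both colorectal lines was added after seeing the data. Positions and exon lengths are from GENCODE 29, in which 95 of 95 members were found, and promoters from RefSeq (GRCh38.p14).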

Additional observations from a re-analysis of the deposited data

How the results depend on the processing

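With the replicate number as a block, 37 of 58 tested members were called in the colorectal lines (29 of them the same), where 50.9% of all genes passed. In PEO4, 12 of 53 were called, with 5 higher and 7 lower, where 11.0% of all genes passed. The added ones in PEO4 included KCNF1, KCNK15, KCNK3, KCNK5, KCNN4, KCNQ3, KCNS3 and KCNV1. The block gave KCNK3 a log2 change of 1.03 (adjusted p = 6.38e-05, edgeR) and KCNMA1 -1.29 in the colorectal lines (adjusted p = 0.00930, edgeR). Same-numbered libraries correlated at 0.0986, 0.718 and 0.630 in the colorectal lines and 0.508, 0.0726 and 0.634 in PEO4. Differently numbered ones correlated at -0.659 to 0.334 and -0.562 to 0.0766. Because the values of 0.0986 and 0.0726 were low, the numbers were not taken to pair the libraries. SW480 replicate 1 correlated best with SW620 replicate 3 (0.334) and PEO4 control replicate 2 with treated replicate 1 (0.0766), the others with their own number. The block gave 10 other genes of potassium handling in PEO4, in place of 3.

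In the colorectal lines the members' median log2 change was -0.25 by DESeq2, -0.33 without a filter, 0.26 with at least 10 counts in every library and -0.27 with 12 libraries in 1 model. The 10-count filter tested 36 members and called 15, 8 higher and 7 lower, where 33.3% of all genes passed. glmTreat called 7 higher members and 10 other genes. In PEO4, DESeq2 called 5 members, 2 higher, and 6 other genes, where 5.29% of all genes passed. glmTreat called 0 members, 0 lower and 0 other genes. Without a filter 9 were called, 5 higher, with 9 other genes, where 3.82% of all genes passed. Total-count scaling gave 1 higher. The 12-library model gave 1 call, 1 lower, and 1 other gene, where 0.703% of all genes passed. A limit of 10 CPM would name 25 members.

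Leaving out 1 library gave medians of -0.22 to 0.15 (colorectal) and -0.069 to 0.075 (PEO4). It gave 17 to 30 other genes called in the colorectal lines and 0 to 8 in PEO4. In PEO4 1 to 8 members were called, 0 to 4 higher and 1 to 4 lower, where 0.366 to 5.38% of all genes passed. Reversals of sign occurred among members that did not pass. They were, over single libraries left out, KCNC4 (-0.11 to 0.38), KCNJ8 (-0.22 to 0.74) and KCNQ5 (-0.34 to 0.40) in the colorectal lines. In PEO4 they were KCNAB3 (-0.33 to 0.36), KCNC4 (-0.22 to 0.067), KCNE3 (-0.15 to 0.27), KCNH2 (-0.18 to 0.19), KCNIP2 (-0.051 to 0.25), KCNJ11 (-0.12 to 0.12), KCNJ14 (-0.091 to 0.013), KCNJ2 (-0.79 to 0.17), KCNJ5 (-0.10 to 0.10), KCNK6 (-0.31 to 0.20) and KCNQ5 (-0.064 to 0.075). Without both colorectal replicate 2 libraries KCNJ14 was 0.0030 and KCNJ8 -0.077. In PEO4, KCNH2 was 0.0083 by DESeq2, 0.022 without a filter and 0.032 in the 12-library model, KCNJ5 0.012 without a filter and 0.015 in that model, and KCNE3 -0.00058 by limma-voom. Depth limits members under about 3 counts per library, where a difference was not detectable.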
